A study of Mus musculus with 16 samples.

Results

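The genes described here are 35 genes of the T cell receptor and of the T lineage, measured in mouse bone marrow on 1-colour arrays. They were found by matching their symbols to the gene names printed by the scanner software for non-control probes. The array carried 52 probes for them among 55681 probes, and 33 of the 35 genes were measured, among 23053 gene names tested. A probe was kept when 6 or more of the 8 arrays of 1 group showed it well above background, as called by the scanner software. Each gene is read from its brightest kept probe unless another probe is named. Themis and Cd40lg had no kept probe: 1 Themis probe was above background on 1 KO chimera and 5 control arrays, the other on 0, and the Cd40lg probe on 0.

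Bone marrow was taken from 8 KO chimeras and 8 controls, with 1 array of total RNA per mouse. A KO chimera was a C57BL/6J mouse, lethally irradiated with 950 rad, that received whole marrow of the Adrb1tm1BkkAdrb2tm1Bkk/J strain, a line lacking the beta 1 and beta 2 adrenergic receptors, by 1 retro-orbital injection. The labels give a ratio of 1 to 4 (Adrb1tm1BkkAdrb2tm1Bkk/J to C57BL/6J), without saying what was mixed, and a recovery of 2 to 3 months. Controls were C57BL/6J mice also irradiated with 950 rad; no donor strain is named for them, and ages and sexes are not given in the sources used here. The title of the series places the question in the loss of sympathetic drive. Receptor loss, the donors' genetic background and grafting itself cannot be told apart in this comparison, nor can host cells that outlived irradiation be told from donor cells.

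The T cell receptor binds antigen through a pair of variable chains, which signal only through the CD3 chains and the zeta chain. The cytoplasmic tails of these chains carry paired tyrosine motifs that the kinase Lck phosphorylates, with CD4 or CD8 bringing Lck to the receptor, and the kinase ZAP-70 then docks on them and passes the signal to adaptors such as LAT. T cells mature in the thymus under transcription factors including TCF-1, GATA-3 and Bcl11b, and the marrow holds mature, largely recirculating T cells as a minority among myeloid, erythroid and B lineage cells.

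The probes of Cd3d and Cd247 are shown because they read the signalling motif of the receptor. On the probes shown Cd3d was higher, while Cd247 differed by -0.41 and did not pass (limma adjusted p = 0.0914 over all probes). Each probe is 60 bases long, printed 5′ to 3′ as the array files give it. Capitals mark a tyrosine codon and, with 2 codons between, a leucine or isoleucine codon, with a pair of such motifs in 1 reading frame, a pattern found in 258 of the 32675 kept probes (0.790%). The Cd3d probe aligned to chr9:44794171-44794402 of build mm9, plus strand, and its 60 bases covered 232 bases of genome, so that it crosses a splice junction. The Cd247 probe shown is the dimmer of 2, at chr1:167786567-167787585, plus strand, covering 1019 bases.
Cd3d: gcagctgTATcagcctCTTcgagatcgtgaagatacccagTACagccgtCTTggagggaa
Cd247, second probe: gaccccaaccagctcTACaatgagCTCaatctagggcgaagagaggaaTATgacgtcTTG

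The Bcl11b probe, the second Zap70 probe and the second Cd8a and Cd6 probes are shown because the results compare probes of these genes. In Bcl11b, at chr12:109153847-109153906 (mm9, minus strand), capitals mark a cysteine codon, a second cysteine codon with 2 codons between and a histidine codon with another 12 codons between, the spacing of a zinc finger, which 38 of the kept probes (0.116%) hold. The Zap70 probe lay at chr1:36839315-36839374 (plus strand), the Cd8a probe at chr6:71323885-71323944 (plus strand) and the Cd6 probe at chr19:10867422-10868678 (minus strand, across a junction). No annotation of exons in mm9 was used here.
Bcl11b: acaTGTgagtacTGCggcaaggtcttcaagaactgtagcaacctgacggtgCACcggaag
Zap70, second probe: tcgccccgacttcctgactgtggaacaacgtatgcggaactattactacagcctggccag
Cd8a, second probe: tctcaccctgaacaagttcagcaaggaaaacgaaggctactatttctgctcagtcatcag
Cd6, second probe: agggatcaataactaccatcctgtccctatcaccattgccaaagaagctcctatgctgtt

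In marrow of the KO chimeras 16 of the 33 measured T lineage genes fell, among them the CD8 chains Cd8a and Cd8b1, Thy1, Tcf7, Cd247 and Zap70, while the receptor chain Cd3d was 4.52-fold higher. The 16 were 48.5% of those measured, 2 genes rose (6.06%) and 15 did not pass the test (limma over all gene names, Benjamini-Hochberg adjusted p under 0.05). Trat1, 1 of the 2, passed the filter on dim probes only through the KO chimeras, where it was high. Cd3d rests on 1 probe, and the second kept probes of Cd8a, Tcf7 and Cd247 did not pass. Over all 23053 gene names tested, 12.1% were lower and 10.2% higher. The members were chosen with earlier results of these data known, so setting their shares beside these is a description. The median log2 difference of the members was -0.36, against -0.02 over all gene names, and 27 of the 33 were negative, against 52.8% of all gene names. All differences are log2 values of the KO chimeras less those of the controls, and levels are log2 signal over the 75th percentile of the array. In whole marrow, fewer T cells and less RNA per T cell cannot be told apart.

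**Figure D1:**
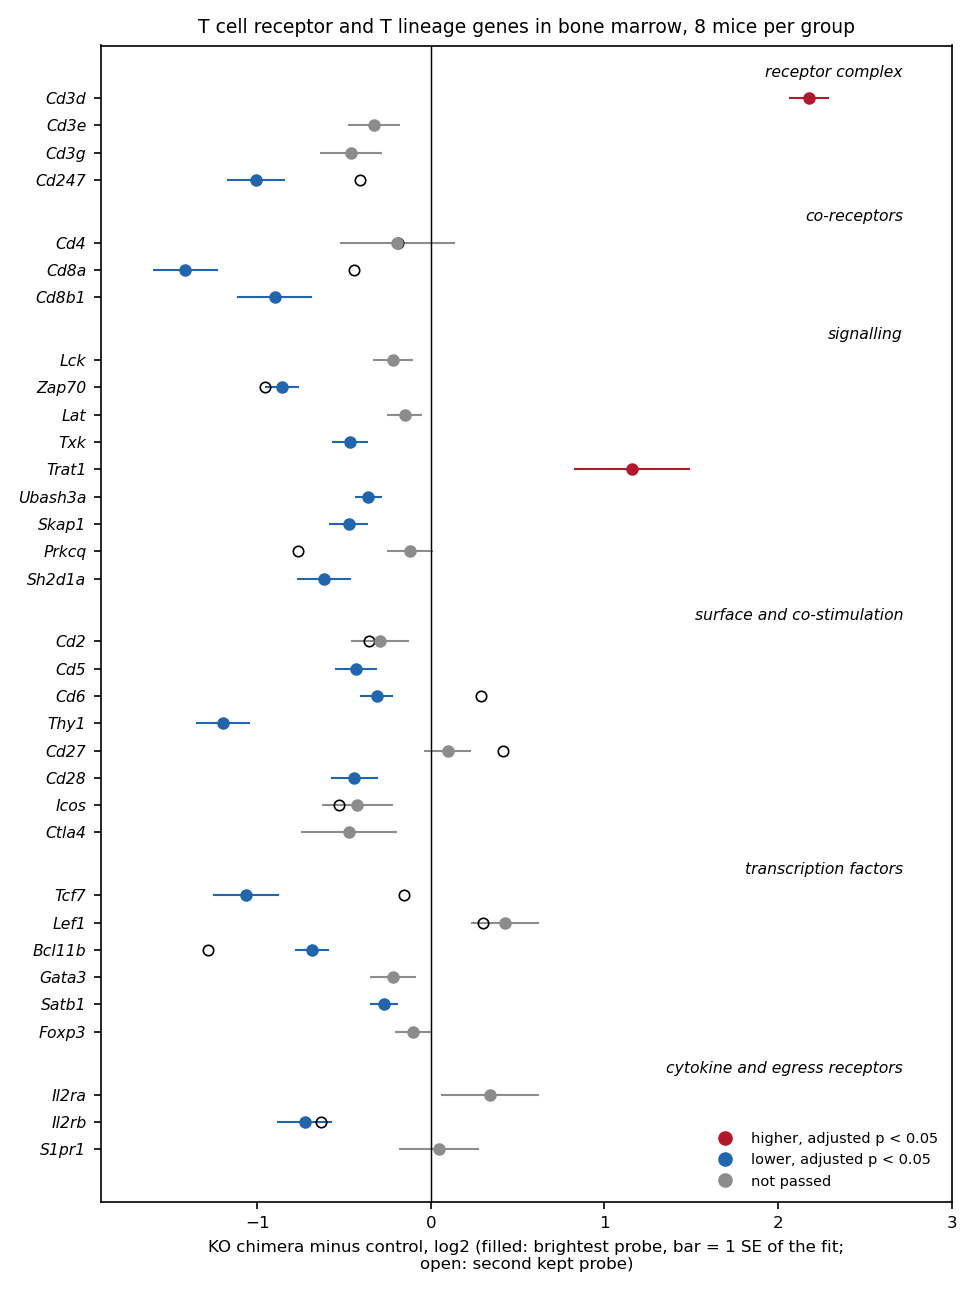
Log2 difference (KO chimera minus control) of the 33 measured genes, ordered by role; filled points are the brightest probe with 1 SE of the fit, open circles the second kept probe, and colours the outcome of the test. Blue points (16 genes) lie left of zero, and Cd3d at 2.18 and Trat1 at 1.16 are the 2 red points.

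The 75th percentile of the processed signal covered 127 to 545 in KO chimeras and 231 to 558 in controls, and no spot was saturated. Adrb1, one of the 2 targeted genes, stood at -2.99 to -2.19 (median -2.41) in KO chimeras and at -2.58 to -2.34 (median -2.51) in controls on its brighter probe (difference -0.00041 ± 0.11, SE, adjusted p = 0.999 over all probes, limma). Its dimmer probe stood at -4.33 to -1.99 (median -3.63) in KO chimeras and at -5.13 to -3.62 (median -4.40) in controls (0.95 ± 0.30, adjusted p = 0.0276). No source used here places these probes inside or outside the altered part of the gene, so neither is a check of genotype. Precision is limited by 8 mice per group, and p-values measure the spread between these mice alone, as the labels name no cohorts.

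In the receptor complex 1 of 4 measured chains rose, 1 fell and 2 did not pass. Cd3d, the CD3 delta chain, stood at 3.70 to 4.41 (median 4.13) in KO chimeras and at 1.51 to 2.12 (median 1.93) in controls. All 8 KO chimeras lay above all 8 controls. The difference was 2.18 ± 0.11 (SE, n = 8 mice per group, 95% confidence interval 1.94 to 2.42, limma adjusted p = 4.90e-10), and it ranked 91 among the increases on the array. Cd247, the zeta chain that carries most of the signalling motifs, moved the other way. It stood at -4.05 to -3.18 (median -3.46) in KO chimeras and at -2.94 to -1.89 (median -2.64) in controls. The groups did not overlap, and Cd247 fell by 1.01 ± 0.17 (2.01-fold, limma adjusted p = 3.04e-04). With normexp background correction and quantile normalization it was -0.37 (adjusted p = 8.72e-04). This probe was above background on 6 KO chimera and 8 control arrays. Its second probe, printed above, differed by -0.41 ± 0.17 and did not pass (adjusted p = 0.0914 over all probes).

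Cd3e and Cd3g, the epsilon and gamma chains of the complex, in which epsilon pairs with delta or with gamma, did not pass. Cd3e stood at 1.85 to 2.51 (median 1.97) in KO chimeras and at 1.93 to 2.90 (median 2.43) in the 7 controls with a value. Its difference was -0.33 ± 0.15 (adjusted p = 0.131, limma). Cd3g stood at -0.71 to 0.60 (median 0.12) in KO chimeras and at -0.07 to 1.02 (median 0.64) in controls. Its difference was -0.46 ± 0.18 (adjusted p = 0.0751, limma). For both genes most KO chimeras lay inside the range of the controls (5 and 6 of 8). Cd3e passed without control 7 (adjusted p = 0.0465) and with scan day as a block (0.0432), and Cd3g passed without KO chimera 5 (0.0432) or control 8 (0.0283).

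**Figure D2:**
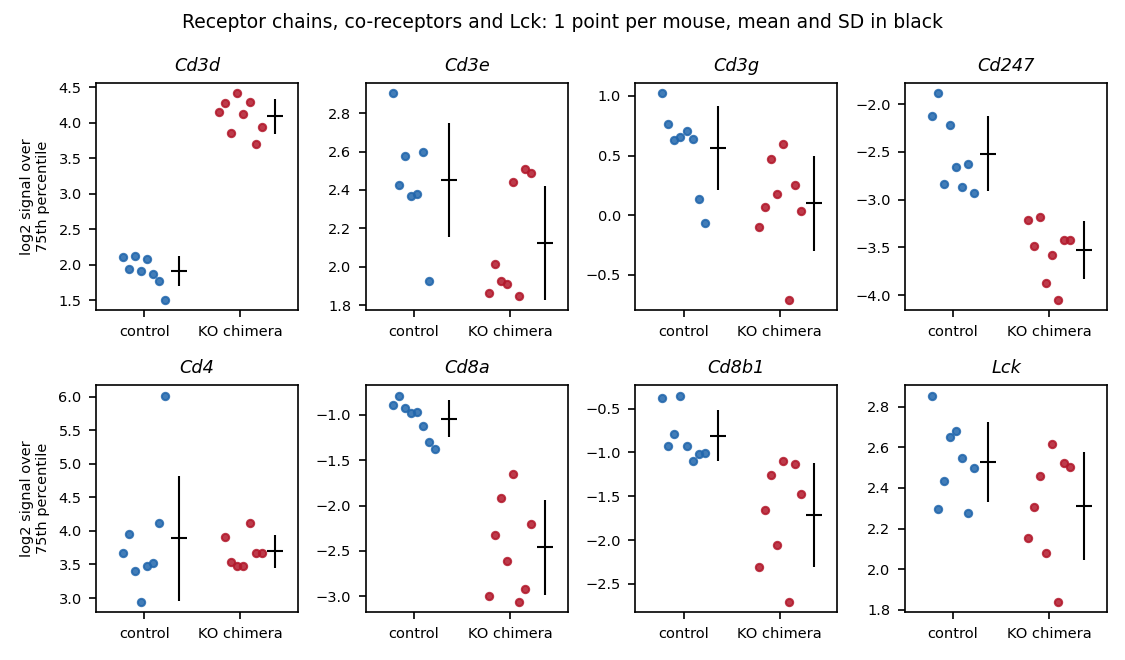
Log2 signal over the array's 75th percentile of the receptor chains, co-receptors and Lck, 1 point per mouse (blue controls, red KO chimeras), with mean and SD in black; each panel has its own axis. Cd3d is separated upwards (3.70 to 4.41 against 1.51 to 2.12), Cd247, Cd8a and Cd8b1 are separated downwards, and 1 control stands at 6.02 for Cd4.

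The members were also set against each other within arrays, over 9 pairs chosen with their values known, so that the shifts below describe the values above and carry no test. The sign of such a difference has no meaning, since probes differ in brightness, and only its shift between groups is read. Cd3d minus Cd3e was 1.97 ± 0.49 (SD) in 8 KO chimeras and -0.48 ± 0.22 in 7 controls, a shift of 2.45. Cd3d minus Cd3g shifted by 2.64 and Cd3e minus Cd3g by 0.22. Cd247 minus Cd3e shifted by -0.74.

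Cd3d, Cd3g and Cd3e lie side by side on chromosome 9, with 16.2 kb between the Cd3g and Cd3d probes and 12.4 kb between those of Cd3d and Cd3e. In a window of 500 kb on either side of the Cd3d probe, chosen after its value was seen, 23 other gene names were tested. Of these, 6 were higher and 4 lower, or 43.5% changed, against 22.3% over all gene names. Among the 4 lower, Gm10684 and Tmprss13 were kept through the controls alone, where they were higher. They were above background on 2 and 0 KO chimera arrays and on 6 and 7 control arrays. The share of 43.5% rests in part on these calls and, with the window so chosen, is a description with no test. Scn2b, a sodium channel beta subunit 144 kb away, was higher by 2.36 ± 0.14 (limma adjusted p = 1.81e-09), and its neighbour Scn4b by 0.88 ± 0.16 (adjusted p = 6.12e-04). Tmprss13, a membrane serine protease 361 kb away, was not well above background on any KO chimera array and at least 3.66-fold lower there (adjusted p = 2.79e-09). The bound takes each KO chimera array at its probe signal or at the weakest signal called above background there, whichever is brighter, and sets the mean of these against the control mean. The median of the 23 was -0.04, with both signs among close neighbours. These genes were named after their values were seen.

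**Figure D3:**
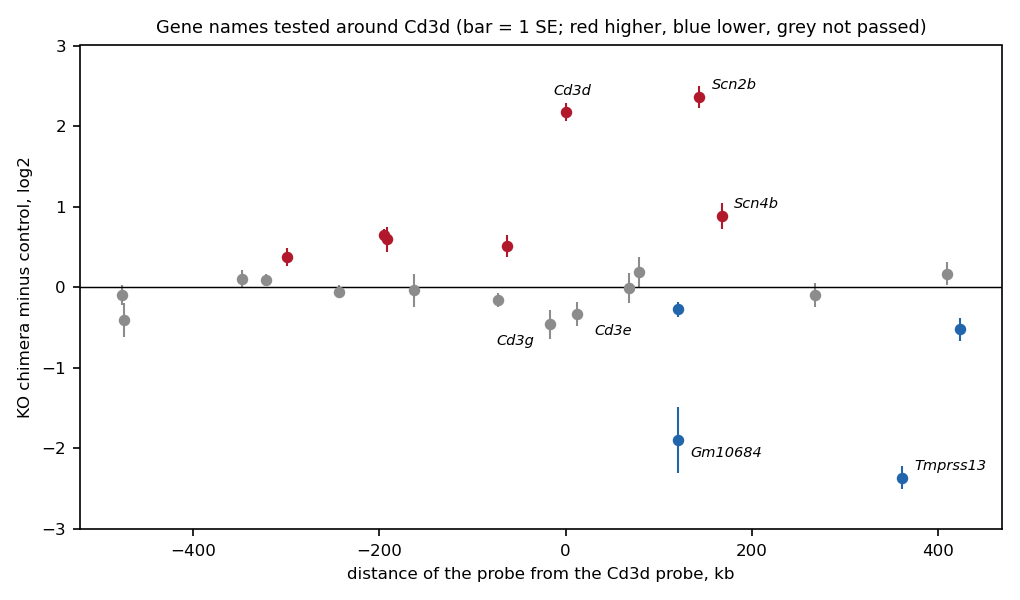
Log2 difference (KO chimera minus control, bar 1 SE) of each gene name tested within 500 kb of the Cd3d probe, by distance in kb; red is higher, blue lower, grey not passed. Cd3d (2.18) stands between Cd3g (-0.46) and Cd3e (-0.33), and Scn2b (2.36) is the only other name in the window above 1.

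Promoters of the 3 clustered CD3 genes are shown because 1 of the 3 rose beside 2 that did not. They are the 250 bases before the gene start in the RefSeq table of GRCm38.p6, which held 23 of the 35 members. Both strands were searched for CTTTGA (the core read by TCF/LEF proteins), TGTGGT (read by RUNX proteins), AGATAA (read by GATA proteins) and CACCTG (an E-box), whose letters do not contain one another, and matches are in capitals. The Cd3g promoter is chr9:44980432-44980681 (minus strand), that of Cd3d chr9:44981536-44981785 (plus strand) and that of Cd3e chr9:45009612-45009861 (minus strand).
Cd3g: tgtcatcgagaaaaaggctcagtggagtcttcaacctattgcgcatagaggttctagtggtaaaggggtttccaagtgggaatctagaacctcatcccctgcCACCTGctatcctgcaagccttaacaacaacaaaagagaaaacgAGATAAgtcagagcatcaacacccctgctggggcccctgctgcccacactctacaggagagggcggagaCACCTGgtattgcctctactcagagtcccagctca
Cd3d: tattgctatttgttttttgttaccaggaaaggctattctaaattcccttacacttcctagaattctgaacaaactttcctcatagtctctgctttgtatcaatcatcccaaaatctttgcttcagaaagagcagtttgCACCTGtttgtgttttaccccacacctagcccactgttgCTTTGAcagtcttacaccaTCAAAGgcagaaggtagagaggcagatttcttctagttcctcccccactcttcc
Cd3e: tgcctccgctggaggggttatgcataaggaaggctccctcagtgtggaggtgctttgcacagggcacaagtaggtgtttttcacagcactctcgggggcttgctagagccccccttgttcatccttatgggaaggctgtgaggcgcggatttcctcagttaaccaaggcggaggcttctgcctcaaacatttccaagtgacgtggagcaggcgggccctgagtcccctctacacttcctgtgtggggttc

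The Cd3d promoter held the TCF/LEF letters 2 times and 1 E-box, that of Cd3g 2 E-boxes and 1 GATA match, and that of Cd3e none of the 4. The TCF/LEF letters stood in the promoters of 6 of the 23 members matched (26.1%), against 15.8% of the 27025 gene symbols in the table. Those 6 were Cd3d and Trat1, which rose, Bcl11b, Txk and Zap70, which fell, and Lef1, which did not pass. The E-box stood in 8 members (34.8%, against 19.4%), the RUNX letters in 4 (17.4%, against 15.9%) and the GATA letters in 3 of the 23, against 11.4%. A gene was counted when any of its promoters held the letters. The 23 members had 37 promoters, 8 of them having several, and the 27025 symbols had 32851. More sequence was thus searched per member than per symbol, so the shares are not on an equal footing. These are matches of letters, not binding sites.

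Among the co-receptors the 2 chains of CD8 fell and Cd4 did not pass. Cd8a, the alpha chain carried by cytotoxic T cells and by some dendritic cells, stood at -3.06 to -1.65 (median -2.47) in KO chimeras and at -1.38 to -0.79 (median -0.97) in controls. The groups did not overlap, and Cd8a had the largest decrease of the members, -1.42 ± 0.19 (2.67-fold, limma adjusted p = 3.21e-05). Its second probe, printed above, was above background on all arrays and differed by -0.44 ± 0.24 (adjusted p = 0.215 over all probes). Cd8b1, the beta chain, whose probe lies 41.6 kb from that of Cd8a, stood at -2.71 to -1.10 (median -1.57) in KO chimeras and at -1.10 to -0.35 (median -0.93) in controls. Its groups touched at -1.10 without overlapping, and the difference was -0.90 ± 0.22 (1.87-fold, limma adjusted p = 0.00617).

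Cd4, the co-receptor of helper T cells, stood at 3.47 to 4.12 (median 3.67) in the 7 KO chimeras with a value and at 2.94 to 6.02 (median 3.60) in controls. Every KO chimera lay inside the range of the controls. The difference was -0.19 ± 0.33 (95% confidence interval -0.90 to 0.51, adjusted p = 0.734). It was 0.11 without control 8, the array with the value of 6.02. The second Cd4 probe was far dimmer, with medians of -3.61 in KO chimeras and -3.48 in controls. It differed by -0.19 ± 0.12 and did not pass. Why the 2 probes differ so much in level was not tested. Within arrays, Cd8a minus Cd3e shifted by -1.13, Cd8b1 minus Cd3e by -0.60 and Cd4 minus Cd3e by 0.40. Cd8a minus Cd4 shifted by -1.15, again with no test for any of these. Cd3e had no value on control 8, so its pairs leave out that array and its Cd4 value of 6.02. Cd8a minus Cd4 keeps that array.

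Of 9 measured signalling genes 5 fell, 1 rose and 3 did not pass. Zap70, the kinase that docks on the phosphorylated CD3 and zeta chains, stood at -0.10 to 0.38 (median 0.23) in KO chimeras and at 0.86 to 1.30 (median 0.98) in controls. The groups did not overlap, and Zap70 fell by 0.86 ± 0.10 (1.81-fold, limma adjusted p = 6.44e-06). Its second probe, printed above, fell by 0.95 ± 0.11. Lck, the kinase upstream of it, stood at 1.84 to 2.62 (median 2.38) in KO chimeras and at 2.28 to 2.85 (median 2.52) in controls. The groups overlapped, and the difference was -0.22 ± 0.12 (adjusted p = 0.207, limma). Zap70 minus Lck within arrays shifted by -0.64, a description with no test.

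Txk, a Tec family kinase of T cells, stood at -1.41 to -0.54 (median -0.91) in KO chimeras and at -0.57 to -0.34 (median -0.45) in controls. Skap1, an adaptor that couples the receptor to integrins, stood at -0.00 to 0.81 (median 0.47) and 0.63 to 1.12 (median 0.91). For both genes 7 of 8 KO chimeras lay below every control, and the differences were -0.47 ± 0.11 (limma adjusted p = 0.00387) and -0.47 ± 0.11 (0.00534). Ubash3a, a negative regulator of receptor signalling, stood at -1.77 to -1.43 (median -1.63) in KO chimeras and at -1.54 to -1.17 (median -1.21) in controls. It fell by 0.36 ± 0.08 (limma adjusted p = 0.00278), with 6 KO chimeras below every control. Sh2d1a, the adaptor SAP that works downstream of SLAM receptors, stood at -2.62 to -1.55 (median -2.21) in KO chimeras and at -2.18 to -1.31 (median -1.41) in controls. It fell by 0.61 ± 0.16 (limma adjusted p = 0.00908), although 4 of the 8 KO chimeras lay inside the range of the controls.

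Trat1, which encodes TRIM, an adaptor associated with the receptor complex, was the second gene to pass as higher. It stood at -4.69 to -2.37 (median -3.32) in KO chimeras and at -5.63 to -3.43 (median -4.47) in controls. The fitted difference was 1.16 ± 0.33 (limma adjusted p = 0.0186), and 3 KO chimeras lay inside the range of the controls. Its probe was above background on 7 KO chimera and 3 control arrays, so that it was kept through the KO chimeras alone and its level in controls and the size of its difference are approximate. With normexp background correction and quantile normalization the difference was 0.31 (adjusted p = 0.0488). Lat, the central adaptor, differed by -0.15 ± 0.10 (adjusted p = 0.329). Prkcq, protein kinase C theta, differed by -0.12 ± 0.13 (adjusted p = 0.575) on its brightest probe. A second Prkcq probe fell by 0.76 ± 0.18 (adjusted p = 0.00561 over all probes), and the mean of the kept probes differed by -0.44 (adjusted p = 0.0239).

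**Figure D4:**
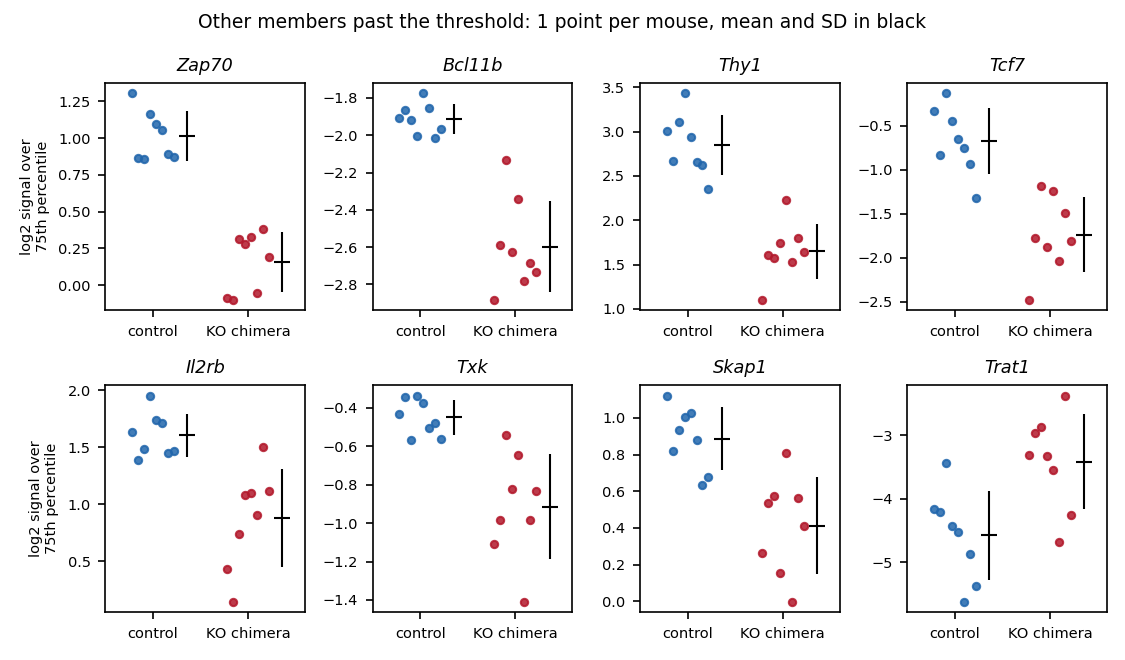
Log2 signal over the array's 75th percentile of 8 other genes past the threshold, 1 point per mouse (blue controls, red KO chimeras), with mean and SD in black; each panel has its own axis. Zap70, Bcl11b and Thy1 show no overlap between groups, and Trat1 is the panel in which KO chimeras are higher.

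Of 8 measured surface and co-stimulatory genes 4 fell and 4 did not pass. Thy1, the surface glycoprotein used to mark mouse T cells and also found on some progenitors and stromal cells, stood at 1.10 to 2.22 (median 1.62) in KO chimeras and at 2.35 to 3.43 (median 2.80) in controls. The groups did not overlap, and Thy1 fell by 1.20 ± 0.16 (2.29-fold, limma adjusted p = 2.86e-05). Its probe lies 938 kb from that of Cd3d on chromosome 9. Cd5, which restrains receptor signalling, stood at -0.07 to 0.85 (median 0.52) in KO chimeras and at 0.77 to 1.13 (median 0.88) in controls. Cd6, a related receptor encoded 71.1 kb from it, stood at 0.93 to 1.47 (median 1.20) and 1.33 to 1.78 (median 1.48). In each gene 6 KO chimeras lay below every control, and the differences were -0.43 ± 0.12 (limma adjusted p = 0.0142) and -0.31 ± 0.09 (0.0220). With slide as a block neither passed (adjusted p = 0.0513 and 0.0677), and the cause was not tested.

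The second Cd6 probe, printed above, differed by 0.29 ± 0.13 and did not pass (adjusted p = 0.119 over all probes), the only case in which 2 kept probes of a member differed in sign. With the mean of the probes in place of the brightest, Cd6 differed by -0.011 (adjusted p = 0.955). Cd28, the main co-stimulatory receptor, stood at -1.32 to -0.70 (median -0.86) in KO chimeras and at -0.96 to -0.16 (median -0.41) in controls. It differed by -0.44 ± 0.14 (limma adjusted p = 0.0261), with 5 KO chimeras inside the range of the controls. The call was lost without KO chimera 6 or without control 1, 3 or 4 (adjusted p = 0.0502 to 0.0547), with slide as a block (0.102), with the replicate number as a block (0.0574) and with array weights (0.0519). Ctla4 and Icos, receptors of the same family encoded beside Cd28 on chromosome 1, differed by -0.47 ± 0.28 and -0.42 ± 0.20. Neither passed, and Ctla4 was above background on 5 KO chimera and 8 control arrays. Cd2, an adhesion receptor, differed by -0.29 ± 0.17 (adjusted p = 0.228). Cd27, a co-stimulatory receptor shared with B cells and progenitors, differed by 0.10 ± 0.14 on its brightest probe and was higher by 0.42 ± 0.15 on another (adjusted p = 0.0471 over all probes).

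Of the 6 transcription factors 3 fell and 3 did not pass. Bcl11b, which holds cells to the T lineage, stood at -2.88 to -2.13 (median -2.66) in KO chimeras and at -2.01 to -1.77 (median -1.91) in controls. The groups did not overlap, and Bcl11b fell by 0.69 ± 0.10 on the probe printed above (1.61-fold, limma adjusted p = 6.31e-05). A second probe, above background on 4 KO chimera and 8 control arrays, fell by 1.28 ± 0.35 (adjusted p = 0.0125 over all probes). Tcf7, which encodes TCF-1, stood at -2.48 to -1.18 (median -1.79) in KO chimeras and at -1.32 to -0.13 (median -0.70) in controls. It fell by 1.06 ± 0.19 (2.09-fold, limma adjusted p = 5.93e-04), with 6 KO chimeras below every control. A second Tcf7 probe, above background on 3 KO chimera and 7 control arrays, differed by -0.15 ± 0.24 and did not pass.

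Satb1, a chromatin organizer of thymocytes also expressed in other blood cells, stood at 1.79 to 2.24 (median 1.97) in KO chimeras and at 1.99 to 2.48 (median 2.26) in controls. It fell by 0.27 ± 0.08 (limma adjusted p = 0.0240), the smallest of the decreases that passed. Lef1, the partner of TCF-1 that is also expressed in early B cells, differed by 0.43 ± 0.19 (95% confidence interval 0.017 to 0.84, adjusted p = 0.131). It passed without KO chimera 4 (0.56, adjusted p = 0.0218), with array weights (0.60, adjusted p = 0.00962) and within scan day 2 (0.74, adjusted p = 0.0243). Gata3 differed by -0.22 ± 0.13 and Foxp3, the factor of regulatory T cells, by -0.10 ± 0.11. Neither passed.

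Of the cytokine and egress receptors 1 fell and 2 did not pass. Il2rb, the beta chain of the receptors for interleukin 2 and interleukin 15 on memory T cells and NK cells, stood at 0.14 to 1.50 (median 0.99) in KO chimeras and at 1.39 to 1.95 (median 1.56) in controls. It fell by 0.73 ± 0.16 (1.66-fold, limma adjusted p = 0.00321), with 7 KO chimeras below every control. Its second probe fell by 0.63 ± 0.15. Il2ra, the alpha chain found on regulatory and activated T cells, differed by 0.34 ± 0.28 (adjusted p = 0.432). S1pr1, the receptor by which lymphocytes leave tissues, differed by 0.05 ± 0.23 (adjusted p = 0.917).

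In 7 of the 33 measured genes the 8 KO chimeras and the 8 controls did not overlap. Cd3d lay wholly above, where 2.87% of all gene names did, and Cd247, Cd8a, Cd8b1, Thy1, Bcl11b and Zap70 lay wholly below, where 3.27% did. Of the 28 genes above background on all 16 arrays, 15 fell, 1 rose and 12 did not pass. Over the 46 kept probes 20 were lower and 3 higher, against 12.2% and 11.4% of all kept probes. Of the 13 genes with several kept probes, 12 had 1 sign throughout. All kept probes passed in 3 of them (Bcl11b, Il2rb and Zap70), none in 4 and some in 6.

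The median deviation of the 16 lower genes from the control mean ran from -0.97 in KO chimera 6 to -0.36 in KO chimera 5, and from -0.20 to 0.18 in the 8 controls. The genes were chosen by the same values, so this is a description. On every KO chimera array all 16 genes lay below the control mean, as did 15 of the 16 on each of controls 7 and 8, 10 on control 2 and 2 to 8 on the other controls. KO chimeras 5 and 3, with the smallest deviations (-0.36 and -0.38), were the mice nearest to the controls for 7 and 5 of the 18 changed genes. Spread between mice was larger in KO chimeras than in controls for 24 of 33 genes (72.7%), close to the share over all gene names (70.9%).

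The arrays came from 6 slides, and both groups were present on 5 of them. Each of the 2 scan days covered 4 KO chimeras and 4 controls. Within slides, 15 of the 16 lower genes were lower on all 5 slides, and the exception, Cd28, ran from -0.80 to 0.12. The 16 genes were chosen by the values of these same arrays, so their signs within slides are a description. Each of the 5 slides held 1 or 2 mice of each group. The slide medians of the lower genes were -0.52, -0.61, -0.44, -0.78 and -0.72 for slides 1 to 5. Those of all measured members were -0.27, -0.41, -0.11, -0.48 and -0.45. Cd3d was higher on every slide, by 1.70 to 2.63, whereas Trat1 ran from -0.04 to 2.52. In a fit with slide as a block 13 members were lower and 2 higher, against 10.8% and 10.2% of all gene names. Within scan day 1, with 4 mice against 4, 6 members were lower and 1 higher, against 3.96% and 3.03% of all gene names in that fit. Within scan day 2, 5 were lower and 2 higher (Cd3d and Lef1), against 4.76% and 5.29%. Trat1 passed on neither day (0.85, adjusted p = 0.292, and 1.47, adjusted p = 0.0834), while Cd3d passed on both.

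**Figure D5:**
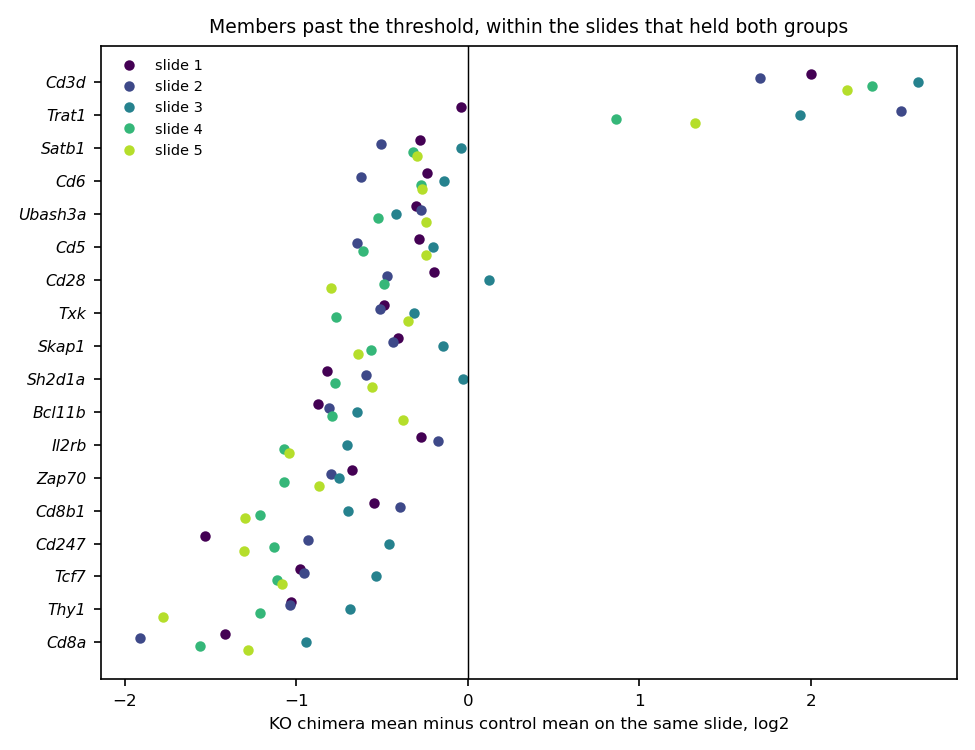
Mean of the KO chimeras minus mean of the controls on the same slide, log2, for the 18 genes past the threshold, 1 point for each of the 5 slides that held both groups. Cd3d lies between 1.70 and 2.63, and 15 of the 16 lower genes lie left of zero on every slide, Cd28 being the exception. The genes shown were chosen by the values of these same arrays.

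Other genes of T cell receptor signalling and T cell identity were read from a list of 94 names, of which 81 were measured. Of these 30 fell (37.0%, against 12.1% of all gene names), 9 rose (11.1%, against 10.2%) and 42 did not pass, with a median of -0.28 against -0.02. The share that rose is thus near that over the array. The list was chosen with earlier results of these data known, so these shares are a description. Among the 30, Lag3, Tnfsf8 and the array name Tcrb-J were kept through the controls alone, where they were higher. They were above background on 4, 4 and 2 KO chimera arrays. With probes above background on all 16 arrays, 24 genes of the list fell and 9 rose. The 4 decreases with the smallest p were Ms4a4b, Cxcr3, Stat4 and Lag3. Ms4a4b, a membrane protein of T and NK cells, stood at -1.74 to 0.28 (median -0.72) in KO chimeras and at 2.53 to 3.04 (median 2.85) in controls, with no overlap. It fell by 3.57 ± 0.25 (limma adjusted p = 1.63e-08), and its other probe by 1.14. Cxcr3, a chemokine receptor of effector T cells, fell by 0.93 ± 0.07 (limma adjusted p = 5.93e-08). Stat4, which relays interleukin 12, fell by 0.97 ± 0.08 (adjusted p = 9.14e-08). Lag3, an inhibitory receptor, fell by 1.55 ± 0.18 (adjusted p = 7.83e-06), but was kept through the controls and above background on 4 KO chimera arrays, so that the size is approximate. Tcra, the array's name for T cell receptor alpha sequences, was not among the 4 and was named after its value was seen. It differed by -1.11 ± 0.22 (adjusted p = 0.00164) and was above background on 6 KO chimera and 8 control arrays.

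The 4 increases with the smallest p in that list were Cd69, Klf2, Cd44 and Tnfrsf9, genes of activation and trafficking that many blood cells express. Cd69, an early activation marker, rose by 1.10 ± 0.18 (limma adjusted p = 3.47e-04) and Klf2, a transcription factor that controls S1pr1, rose by 0.83 ± 0.14 (adjusted p = 3.89e-04). Tnfrsf9, which encodes 4-1BB, rose by 0.52 ± 0.10 (adjusted p = 8.63e-04). Cd44, a hyaluronan receptor, rose by 0.57 ± 0.10 (adjusted p = 7.84e-04) on its brightest probe, while its other probes differed by -1.05, 0.19 and 1.00. The summed signal of the list, in multiples of the array's 75th percentile, covered 518 to 707 in KO chimeras and 468 to 600.3 in controls. Klf2 alone made up 198 to 318 of it in KO chimeras and 98.0 to 178 in controls. Without Klf2 the sum covered 320 to 392 in KO chimeras and 357 to 429 in controls.

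Markers of other marrow cells were read on the same arrays, and their part in the results above was not tested. The counts here and in the next paragraph stand beside 12.1% lower and 10.2% higher over all gene names tested. These lists too were chosen with earlier results of these data known, so the counts are a description. Of 14 measured T cell defining markers, all of them members, 7 fell, 1 rose and 6 did not pass, and each had a probe above background. Their summed signal covered 53.3 to 67.6 in KO chimeras and 50.8 to 103 in controls, or 50.8 to 60.5 in controls without control 8, whose Cd4 value stood apart. Cd3d gave up to 21.3 of it in KO chimeras and up to 4.35 in controls. Without Cd4 alone the sum covered 38.4 to 50.4 in KO chimeras and 34.6 to 47.8 in controls. Without Cd3d alone it covered 32.8 to 49.8 and 46.5 to 99.9, and without Cd3d and Cd4 18.9 to 33.0 and 31.1 to 43.5. The genes left out were picked after their values were seen, so these sums are a description. NK cell markers, of which 15 were measured, had 5 lower and 1 higher with a median of -0.08 and sums of 30.7 to 43.7 against 32.7 to 47.6. Klrk1, the receptor NKG2D, differed by -1.70 ± 0.32 (adjusted p = 0.00102), a size that is approximate since only 2 KO chimera arrays and all 8 control arrays measured it above background, and Ncr1, the receptor NKp46, by 1.00 ± 0.18 (adjusted p = 7.13e-04). Innate lymphoid markers had 2 of 7 lower (Il17rb by -0.54 and Il1rl1 by -0.95) and 1 higher, with a median of -0.03 and sums of 12.5 to 17.9 against 12.6 to 15.8. Of 18 B lineage markers 2 were lower (Bank1 and Cr2, each by -0.65) and 2 higher, or 11.1% each, near the shares over all gene names. The 2 higher were the surrogate light chain genes Vpreb1 by 1.36 ± 0.37 (limma adjusted p = 0.0131) and Igll1 by 1.40 ± 0.42 (0.0243), both named after their values were seen. The B lineage list had a median of 0.10 and sums of 208 to 338 against 205 to 367. Of 8 plasma cell markers 5 were lower, among them Igj by -0.81 and Tnfrsf17 by -0.68, and 3 did not pass. Their median was -0.47, and their sums of 57.8 to 89.3 against 90.4 to 157 do not overlap. Igj was the brightest of them, with medians of 5.44 in KO chimeras and 6.27 in controls. The sums rest in large part on it and do not describe the list evenly.

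Among the abundant marrow lineages, none of 15 neutrophil markers passed (0 called by limma, 1 with an unadjusted p under 0.05), with a median of 0.06 and sums of 3366 to 5025 against 3711 to 4346. None of 10 erythroid markers passed (0 called, 0 with an unadjusted p under 0.05), with a median of -0.16 and sums of 794 to 1481 against 727 to 1445. Of 13 monocyte and macrophage markers 5 were lower and 2 higher, with Cd14, a lipopolysaccharide co-receptor, at 2.26 and the complement gene C1qc at -1.58, a median of -0.21 and sums of 102 to 176 against 93.1 to 131. Of 9 dendritic cell markers 4 were lower, Clec9a by -1.56 and Ccr9 by -0.71 among them, with a median of -0.26 and sums of 166 to 297 against 189 to 222. Megakaryocyte markers were lower in 9 of 11, with Itgb3 at -1.57 and Clec1b at -2.87, a median of -1.03 and sums of 23.4 to 56.0 against 44.8 to 83.9. Stem and progenitor markers were lower in 6 of 10 and higher in 1, with Kit at -0.90 and Meis1 at -0.63, a median of -0.36 and sums of 24.0 to 31.6 against 31.0 to 45.8. No probe was above background on any array for 1 listed gene of the NK cell list, 2 of the innate lymphoid list, 1 of the dendritic cell list and 1 of the signalling list. Some genes stand in more than 1 of these lists.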

How the data were processed

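Total RNA of bone marrow was labelled with Cy3 and hybridised to Agilent 1-colour arrays, per the labels' protocols, and scans were read by Agilent Feature Extraction, version 10.7 in the submitters' processing notes but 10.1.1.1 in the file headers. Scanner files deposited by the authors hold spot intensity, background-subtracted by that software, with its calls of outliers and of signal above background, per the file headers, and probe positions in mm9. The authors' deposited table of log2 values matched each array's scanner signal by spot number (r = 0.991 to 1.00, column medians 4.98 to 5.00); its scale and direction are taken from that match, and its centring stays unknown here. It served as an alternative.

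Outlier spots were left out, spots of a probe averaged, and log2 intensity taken over the 75th percentile of non-control spots. Of 55681 probes 32675 were kept, and the brightest kept probe of each gene name (23053) entered lmFit and eBayes of limma 3.58.1, run under R 4.3.3 (all 16 arrays, two-sided, Benjamini-Hochberg, adjusted p under 0.05); a second fit took every kept probe. The fit was also run on simulated data, drawn for each gene independently and without slides or scan days. That run cannot show whether the calls hold in these data. Summed list signals kept outlier spots. Alternatives were other normalizations, background corrections and filters, the authors' values, slide, scan day or replicate number as a block, single scan days, probe means, array weights, a variance trend, array brightness and leaving out each mouse.

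The members and lists were chosen with earlier results of these data known. Values by mouse are given for members past the threshold and for the CD3 chains, Cd247, Cd4, Cd8a, Cd8b1 and Lck, other members by their difference, up to 4 changed genes a direction of the signalling list and up to 2 of each list of another cell type, by smallest p. Tcra, Vpreb1, Igll1 and genes around Cd3d were named outside this rule, after their values were seen. The lists were 12: T cell defining, T cell receptor signalling and identity, NK, innate lymphoid, B lineage, plasma, neutrophil, monocyte and macrophage, dendritic, erythroid, megakaryocyte and platelet, and stem and progenitor.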

Additional observations from a re-analysis of the deposited data

Results flagged for a closer look

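In 3 of 66 combinations of a member and a group, 1 mouse stood far from the other 7, by Dixon's criterion for 8 samples (a gap of over 0.526 of the group's range); about 1 in 20 groups pass it by chance. For Cd4, control 8 had a log2 level of 6.02, the next control being at 4.12. The difference between groups was -0.19 with it and 0.11 without it. The array of control 8 also had 966 outlier spots, the most of any, KO chimera 6 being next with 414. Whether this bears on its Cd4 value was not tested. For Icos, KO chimera 6 was lowest at -3.44, the next KO chimera being at -2.79, and control 5 was highest at -1.18, the next control being at -2.07.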

How the results depend on the processing

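Cd3d, Cd247, Cd8a, Thy1 and Zap70 kept their direction and passed under every alternative in which they were measured, single scan days included. Normexp background correction with quantile normalization made the difference smaller in all 18 changed members, from -1.01 to -0.37 for Cd247, -1.42 to -0.86 for Cd8a and 1.16 to 0.31 for Trat1; Cd247 and Trat1 moved by over 1.5 times, and no call was lost. Leaving out 1 mouse gave 15 to 17 lower and 2 to 3 higher members, a member median of -0.42 to -0.31, 26 to 33 lower and 8 to 9 higher genes of the signalling list, and 4401 to 5326 changed gene names. With probes above background on all 16 arrays, 1 member was higher, since Trat1 was not measured. Within scan day 1, 1 member was higher and 6 lower, 2 list genes higher and 11 lower, and 1611 gene names changed; within scan day 2, 5 members and 14 list genes were lower and 2314 gene names changed, each with 4 mice against 4. Signs turned for members that had not passed: S1pr1 was -0.083 with slide as a block, -0.12 in scan day 1 and -0.12 with array brightness as a covariate, and -0.074 to 0.19 with 1 mouse left out; Cd4 was 0.28 in scan day 1 and -0.33 to 0.11 with 1 mouse left out; Il2ra was -0.024 in scan day 1; Foxp3 was 0.0046 in scan day 2. The cause was not tested. Same-numbered mice of the groups did not vary together (r from -0.19 to 0.20, own number best for 1 of 8 KO chimeras). With the replicate block 15 members were lower and 2 higher, against 11.1% and 9.44% of all gene names, Cd28 no longer passing. Dim probes limit Trat1, Ctla4 and Cd247, which were near background in 1 group.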
